A study of Danio rerio and Xenopus laevis and Xenopus tropicalis with 8 samples.

Results

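Wnt proteins are secreted ligands that bind Frizzled (fzd) receptors together with the co-receptors lrp5 and lrp6. Binding recruits Dishevelled (dvl) and Axin, stabilises beta-catenin and lets it act with nuclear factors of the tcf7 family, whereas other Frizzled signals run through Dishevelled alone and control cell movements. Secreted Frizzled-related (sfrp) and Dickkopf (dkk) proteins hold the ligands or the co-receptors back. In fish and frogs, maternal Wnt signalling is known for setting up the dorsal side of the embryo, and Wnt11 for its vegetal RNA in the Xenopus oocyte.

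The genes described are the annotated members of these 8 families, found by symbol (wnt, fzd, sfrp, dkk, axin and dvl followed by their number, lrp5, lrp6 and the tcf7 group), with wnt8a left out. The zebrafish annotation of the single-cell data held 61 such genes among 32520, and the section data held counts for 38 of 21850 zebrafish entries, 41 of 31524 X. laevis entries and 36 of 16953 X. tropicalis entries. For zebrafish sections, only entries that stand for a single gene were used, so 6 to 8 joined entries per embryo (for example fzd10 joined to piwil1, and wnt16 joined to stab2) were left out.

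RNA was measured along the animal-vegetal axis by tomo-seq, in which a frozen specimen is cut into consecutive slices and each slice is sequenced with its own barcode. The specimens were AB wildtype zebrafish at the one-cell stage (3 embryos) and mature oocytes of X. laevis (2) and X. tropicalis (2), all untreated. New and old RNA were told apart by scSLAM-seq in cells of AB wildtype embryos at the shield stage, 6 h after fertilization, that had been injected with 4sUTP: RNA made after the injection carries the label, and unlabeled RNA is maternal or escaped the label. That experiment is 1 library of pooled embryos, so its values have no replicate check and its intervals cover counting error only.

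Embryos and oocytes yielded between 10215262 and 33187809 molecule counts each, in 62 to 74 usable sections. Zebrafish embryo 3 was the deepest of its group and was made with shorter molecular tags than the other specimens, and what this does to its levels was not tested. The kept sections of a specimen were split in order into 3 equal parts, a vegetal, a middle and an animal region, and a level is given in CPM, counts scaled to the same total in each region. Both methods read one tag per molecule at the 3′ end, so the levels of different genes can be set side by side without a length correction. As a check of orientation, dazl, a germ plasm RNA of the vegetal pole, was at 189 to 1339 CPM in the vegetal regions of the zebrafish embryos, against 7.69 to 48.7 CPM in the animal regions, and was also higher in the vegetal region of all 4 oocytes. The animal marker exd2 was lower in the vegetal region of the zebrafish embryos and X. laevis oocytes, but in X. tropicalis it was at 203 and 103 CPM in the vegetal regions, against 277 and 75.2 CPM in the animal regions, so that the orientation of oocyte 2 rests on dazl (119 against 9.70 CPM). In every specimen the vegetal region held fewer counts than the animal one, from 1751624 to 6728910, which limits what can be seen there. The levels are relative to the RNA of the same region, so less of one RNA and more of all others cannot be told apart.

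Of the members, 10 zebrafish, 18 X. laevis and 17 X. tropicalis entries had enough counts to be tested between the vegetal and the animal region (edgeR quasi-likelihood test with the specimen as a block, adjusted p below 0.05 over all entries). In zebrafish, the vegetal region was the higher for 0 of 10 and the animal region for 6 of 10, where 4.16% and 27.4% of all 9662 entries tested were called. The count of vegetal members was also 0 at an unadjusted p below 0.05 and with DESeq2. In X. laevis the vegetal region was the higher for 5 of 18 and the animal region for 1 of 18, against 15% and 18.5% of all 17336 entries. In X. tropicalis these numbers were 7 and 1 of 17, against 8.88% and 16.5% of all 10268 entries. The zebrafish members tested had a median log2 difference (vegetal over animal) of -0.72, against -0.29 for all entries. The median was 0.33 for the X. laevis members, against -0.02 for all entries, and 0.38 for the X. tropicalis members, against -0.08.

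The negative median of all zebrafish entries depends on the scaling. With TMM factors it was -0.02, and the calls over all entries changed so that 954 were vegetal and 902 animal, against 402 and 2652 with region totals. The called zebrafish members are therefore given on both scales. Without the embryo as a block no zebrafish entry, member or not, was called, and the levels of the called members overlapped between the regions across embryos. Within embryos, all 6 had their lower level on the vegetal side in 3 of 3. They were called by the blocked test on these same values, so this is not separate support. The share of all entries with this pattern is not given.

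**Figure D1:**
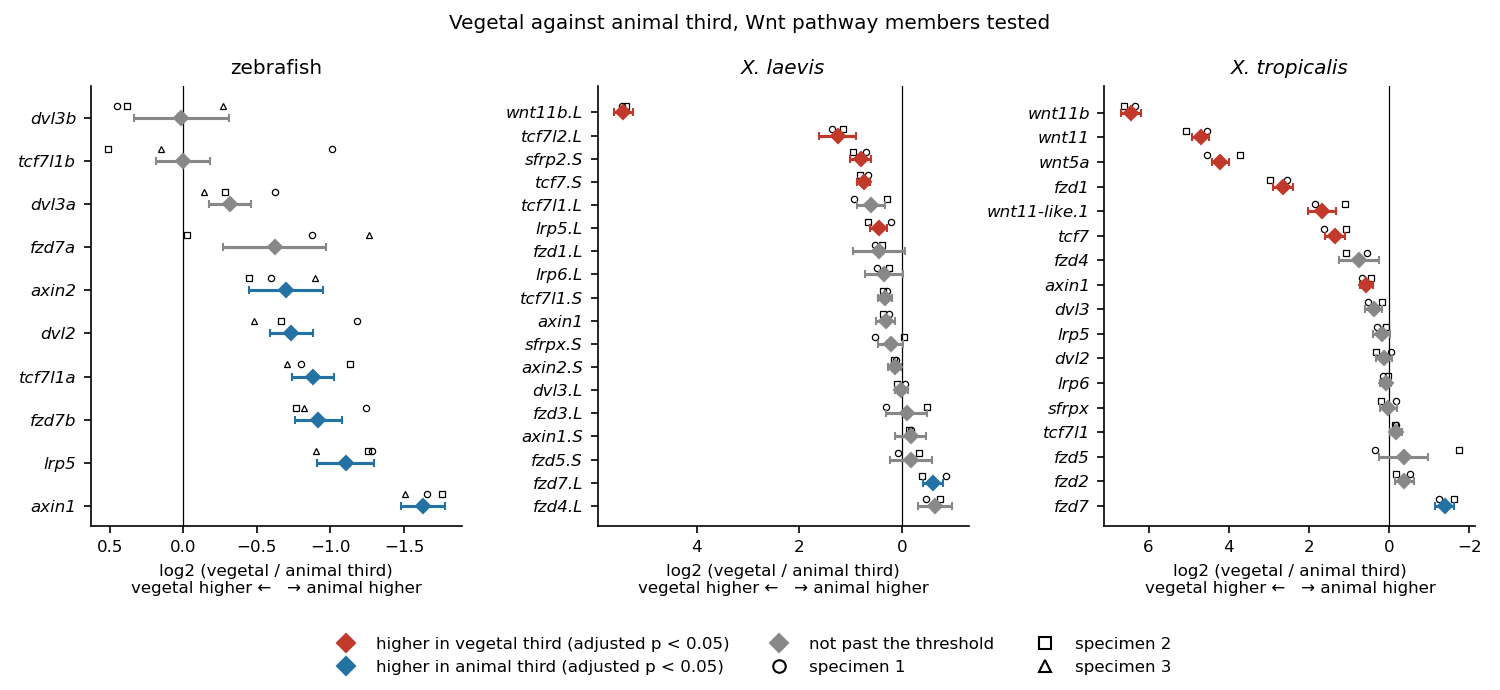
Log2 ratio of the vegetal over the animal region for every member tested, with 3 specimens in zebrafish and 2 in each frog (higher in the vegetal region is to the left). Diamonds with bars are the edgeR estimates with standard errors derived from the F statistic of the test, open symbols the single specimens. X. laevis wnt11b.L and X. tropicalis wnt11b, wnt11 and wnt5a stand apart, up to 6.43, while wnt11-like.1 (1.68) lies below fzd1 (2.64), and the called zebrafish members lie on the animal side, from -1.63 to -0.70.

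The members with the largest vegetal differences in the frogs were Wnt ligands, 1 in X. laevis and 3 of the 4 tested in X. tropicalis. In X. laevis, wnt11b.L, a ligand known from Xenopus for its vegetal RNA and its part in axis formation, had 164 and 141 CPM in the vegetal regions of oocytes 1 and 2, against 3.69 and 3.34 CPM in the animal regions. The oocytes differed little from each other, with 44.4-fold and 42.04-fold more in the vegetal region. Its log2 difference was 5.43 ± 0.18 (SE, n = 2 oocytes, edgeR adjusted p = 1.16e-199), and it kept its call without the replicate block (adjusted p = 5.47e-05). The adjusted p was 1.59e-21 with TMM factors (edgeR) and 4.33e-93 with DESeq2. The size of p thus depends on the fit and does not measure the spread between 2 oocytes. Each SE printed here is the absolute log2 difference divided by the square root of the edgeR F statistic. It does not measure the spread between specimens either.

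With the sections in 10 equal bins, the wnt11b.L level was 436 and 334 CPM in the most vegetal bin and 183 and 177 CPM in the next. It was at most 17.1 CPM in each of the 6 most animal bins of both oocytes, so the gradient lay within the vegetal part.

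X. tropicalis had 3 ligands of this kind. Its wnt11b was at 290 and 113 CPM in the vegetal regions of oocytes 1 and 2, against 3.51 and 1.05 CPM in the animal regions (log2 difference 6.43 ± 0.25 SE, n = 2, edgeR adjusted p = 8.55e-23). The entry wnt11, a close relative, had 300 and 124 CPM in the vegetal regions, against 12.9 and 3.58 CPM in the animal regions (log2 difference 4.70 ± 0.21 SE, n = 2, edgeR adjusted p = 1.89e-20). For wnt5a, a ligand best known for beta-catenin-independent signalling and cell movements, the levels were 327 and 151 CPM in the vegetal regions and 14.05 and 11.4 CPM in the animal regions (log2 difference 4.21 ± 0.21 SE, n = 2, edgeR adjusted p = 3.23e-19).

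In all 3 genes oocyte 1 was higher than oocyte 2 in the vegetal region, yet each vegetal value lay above each animal value. All 3 were called under every alternative that gave a test, also without the replicate block, where their adjusted p values were 0.0396 for wnt11, 0.0196 for wnt11b and 0.0181 for wnt5a. The most vegetal bin held the highest level of each in both oocytes, 749 and 254 CPM for wnt11b, 698 and 341 CPM for wnt11 and 464 and 312 CPM for wnt5a.

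Towards the animal side the 3 genes had different levels. In the middle region wnt11b was at 31.2 and 10.2 CPM, wnt11 at 46.6 and 12.9 CPM and wnt5a at 54.1 and 26.4 CPM. The mean position of the RNA along the axis (0% animal, 100% vegetal, from section levels) was 86.5% and 85.5% for wnt11b, 83.5% and 86.1% for wnt11 and 80.3% and 78.9% for wnt5a, so that the mean position of wnt5a was the nearest to the animal pole in both oocytes. The most vegetal section of oocyte 1 was separated from the run of kept sections. Without it and 1 such section at the animal end of oocyte 2, the same numbers of members were called.

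A 4th entry, wnt11-like.1, was lower and less steep. It had 28.7 and 4.00 CPM in the vegetal regions of the X. tropicalis oocytes, against 7.95 and 1.90 CPM in the animal regions, and the values of both regions overlapped between the oocytes. The log2 difference was 1.68 ± 0.35 (SE, n = 2, edgeR adjusted p = 0.000296), a call that was lost with DESeq2 (adjusted p = 0.0603) and without the replicate block (adjusted p = 0.672). Since wnt11, wnt11b and wnt11-like.1 are related entries of one annotation, and the X. laevis .L and .S entries are duplicated copies, reads of near-identical stretches may have been shared out between them, and each value is uncertain to that extent.

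**Figure D2:**
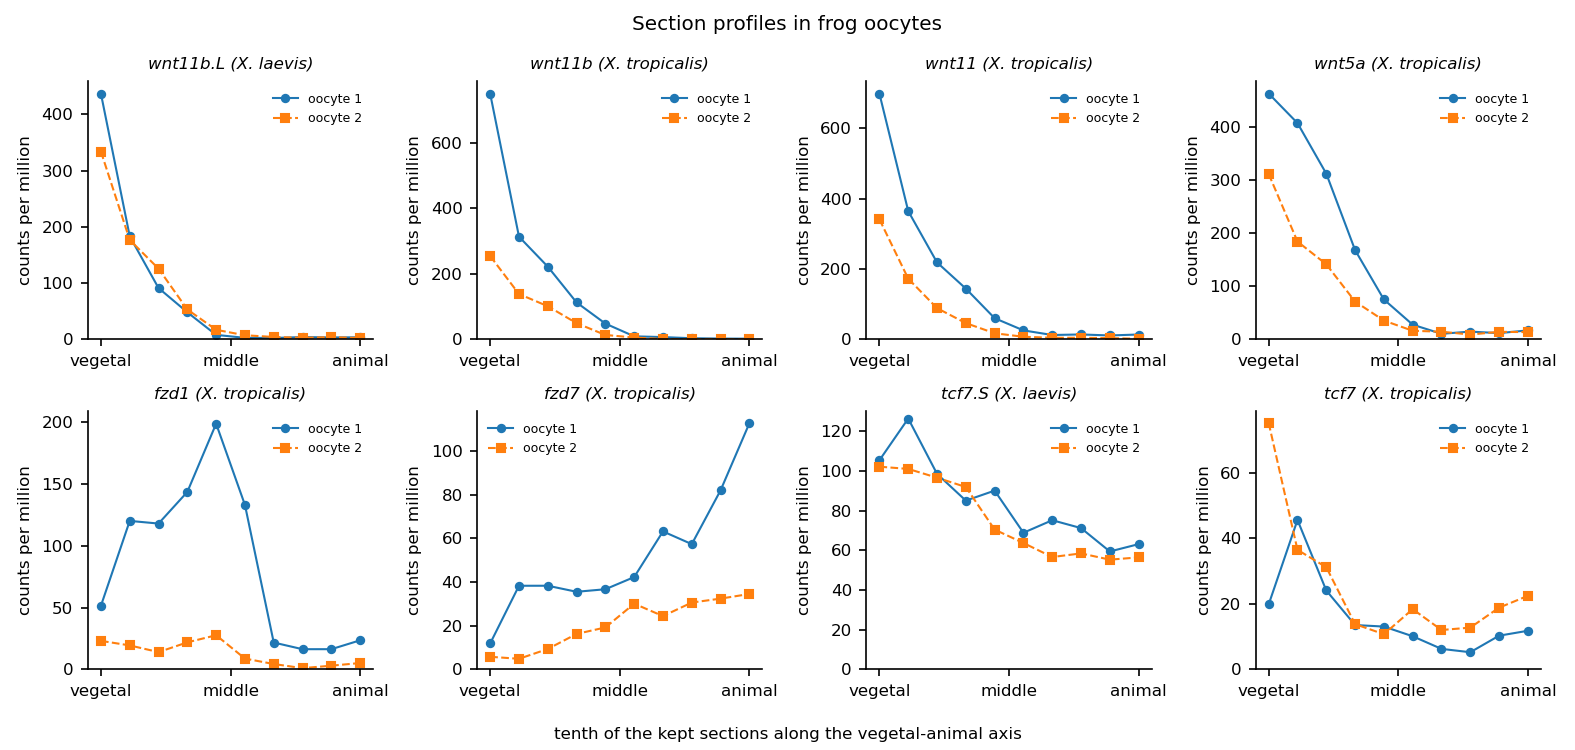
CPM of 8 members in 10 equal bins of the kept sections, from the vegetal end on the left to the animal end on the right, 1 line per oocyte. The Wnt ligands fall steeply from the vegetal end, reaching 749 CPM in the most vegetal bin for X. tropicalis wnt11b in oocyte 1, while X. tropicalis fzd1 peaks near the middle and fzd7 rises towards the animal end.

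Of the ligands described, which leave out wnt8a, the others were near the limit of detection. In X. laevis, 8 further Wnt entries had counts, none with enough to be tested, among them wnt5a.S with 23 counts in both oocytes together and wnt11.L with 2. In X. tropicalis the other 8 Wnt entries had at most 30 counts each (wnt1). In the zebrafish embryos all 16 Wnt entries with counts stayed below the test's minimum. The most abundant, wnt4b, had 107 counts in the 3 embryos together, wnt3a had 30, and wnt11 had 12. At this depth no gradient of these 16 entries could be tested.

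At 6 h, wnt11 had the most counts of the zebrafish ligands described, which leave out wnt8a. It had 834 labeled and 125 unlabeled counts in the 6847 cells, which makes a labeled share of 86.97% (exact Clopper-Pearson 95% interval 84.7% to 89.03%). The next of these ligands, wnt5b, had 21 counts. Of the ligands, wnt2, wnt3, wnt5a and wnt8b were among the 21 members with no count in these cells, which allows up to 0.353 labeled CPM for each (3 counts).

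The new wnt11 RNA was spread over several cell classes. Classes were taken from clusters of the labeled RNA, made without any of the genes described here, and named from marker genes. The labeled level was 256 CPM (exact Poisson 95% interval 224 to 291) in non-axial mesoderm-like cells, 219 CPM (188 to 254) in ventral mesoderm-like cells and 187 CPM (153 to 226) in chordamesoderm-like cells. Enveloping layer-like cells had 170 CPM (129 to 221). Neuroectoderm-like cells had 12.5 CPM (7.65 to 19.3) and prechordal plate-like cells 28.02 CPM (9.099 to 65.4). Barcodes with at most 10 counts, which hold free RNA rather than a cell, had 109 labeled CPM of wnt11, so the levels in neuroectoderm-like cells lie below that of free RNA.

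Frizzled receptors differed from each other in direction. In X. tropicalis, fzd1 was higher in the vegetal region, with 107 and 18.8 CPM in oocytes 1 and 2, against 18.4 and 2.32 CPM in the animal region. Within each oocyte the ratio was 5.83-fold and 8.12-fold, and the log2 difference 2.64 ± 0.24 (SE, n = 2, edgeR adjusted p = 1.66e-11). The call was lost without the replicate block (adjusted p = 0.457). Oocyte 1 held several times more fzd1 than oocyte 2 in every region.

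The fzd1 profile was not that of the ligands. In oocyte 1 the level stepped up between neighbouring bins, with 133 CPM in the 5th bin from the animal end and 21.8 CPM in the bin on its animal side. The highest bin was the 6th from the animal end in both oocytes, with 199 and 27.7 CPM. The most vegetal bin of oocyte 1, which includes the section separated from the run of kept sections, was down at 51.6 CPM. Its level without that section was not computed. Oocyte 2 showed neither as clearly, with 8.77 CPM in the 5th bin, 4.37 CPM in the bin on its animal side and 23.1 CPM in the most vegetal bin. In X. laevis, fzd1.L was at 2.47 and 1.19 CPM in the vegetal regions and 1.76 and 0.912 CPM in the animal regions and was not called (log2 difference 0.44 ± 0.51 SE, n = 2, edgeR adjusted p = 0.548).

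The fzd7 genes, receptors known in the fish and frog gastrula for Wnt11 signalling, were higher in the animal region wherever they were called. In X. tropicalis, fzd7 had 33.3 and 9.70 CPM in the vegetal regions, against 79.5 and 30.4 CPM in the animal regions, a fall in both oocytes although oocytes 1 and 2 overlapped (log2 difference -1.38 ± 0.23 SE, n = 2, edgeR adjusted p = 9.96e-06; lost without the replicate block, adjusted p = 0.589). In X. laevis, fzd7.L had 9.40 and 13.5 CPM in the vegetal regions, against 17.1 and 17.8 CPM in the animal regions (log2 difference -0.59 ± 0.20 SE, n = 2, edgeR adjusted p = 0.0098). That call was lost with DESeq2 (adjusted p = 0.344) and without the replicate block (adjusted p = 0.193). Its highest bin was the most animal one, with 32.7 and 24.2 CPM.

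Zebrafish has 2 fzd7 genes, and both were measured. On chromosome 6 (GRCz10), fzd7b had 18.3, 17.8 and 40.7 CPM in the vegetal regions of embryos 1 to 3, against 43.7, 30.5 and 71.9 CPM in the animal regions. It was lower in the vegetal region of 3 of 3 embryos (log2 difference -0.92 ± 0.16 SE, edgeR adjusted p = 0.000113; with TMM factors -0.64, adjusted p = 0.00207). Its partner fzd7a, on chromosome 9, was scarcer, with 1.71, 7.44 and 1.92 CPM in the vegetal regions and 3.58, 7.65 and 4.92 CPM in the animal regions, and was not called (log2 difference -0.62 ± 0.35 SE, n = 3, edgeR adjusted p = 0.18).

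Other Frizzled genes showed no difference past the threshold. In X. laevis the entries fzd4.L, fzd3.L and fzd5.S were at 1.78 to 5.27 CPM in all regions compared, with log2 differences of -0.64 ± 0.33, -0.09 ± 0.39 and -0.18 ± 0.41 (SE). In X. tropicalis fzd2 had 22.8 and 20.5 CPM in the vegetal regions, against 33.2 and 23.2 CPM in the animal regions (log2 difference -0.38 ± 0.23 SE), and fzd4 and fzd5 were under 6 CPM. The zebrafish entry fzd8b had 492 counts in embryo 3 but 3 and 14 in embryos 1 and 2, and did not pass the filter on low counts.

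By 6 h the more abundant zebrafish Frizzled transcripts were mostly new. Labeled shares were 89.5% for fzd7a (1852 counts, exact 95% interval 88.04% to 90.9%), 81.5% for fzd7b (1734 counts, 79.6% to 83.3%), 91.9% for fzd8b (360 counts, 88.6% to 94.5%) and 90.2% for fzd8a (246 counts, 85.8% to 93.6%). In sections of all 3 one-cell embryos fzd7a was the scarcer of the pair, whereas at 6 h it had 195 labeled CPM, against 166 for fzd7b. Among the rarer receptors, fzd3a (159 counts), fzd10 (148) and fzd2 (95) had labeled shares of 93.1%, 89.9% and 92.6%. The rarest were lower, with 42.9% of 28 counts for fzd6 (24.5% to 62.8%), 28.6% of 7 for fzd9b and 50% of 6 for fzd3b.

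The fzd8 genes were concentrated in prechordal plate-like cells, a class of 144 cells named from gsc, ripply1, six3b, sebox, otx1 and foxa. There fzd8b had 1586 labeled CPM (283 counts, exact Poisson 95% interval 1407 to 1782), against 48 labeled counts in all other cells together, a ratio of 275. The next class, chordamesoderm-like cells, had 45.4 CPM (29.7 to 66.5), and free RNA had 51.7 CPM from 9 labeled counts. In enveloping layer-like cells there were 0 labeled counts of fzd8b, which allows up to 9.12 CPM (3 counts). For fzd8a the level in prechordal plate-like cells was 359 CPM (276 to 458), which was 18.9 times that of all other cells. Chordamesoderm-like cells followed with 50.6 CPM (33.9 to 72.7), and neuroectoderm-like cells had 25.1 CPM (17.9 to 34.1). The 22.96 CPM of fzd8a in free RNA came from 4 labeled counts, too few for a close comparison.

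The fzd7 pair was broader. For fzd7a the labeled level was 680 CPM (580 to 793) in endoderm-like cells, 460 CPM (417 to 506) in non-axial mesoderm-like cells and 415 CPM (326 to 521) in prechordal plate-like cells, with 189 CPM (168 to 211) in neuroectoderm-like cells and 59.8 CPM (44.1 to 79.2) in ventral mesoderm-like cells. For fzd7b the classes ranged from 97.8 CPM in chordamesoderm-like cells to 263 CPM (202 to 336) in endoderm-like cells, around the 155 CPM of free RNA, and no class reached a ratio of 2. The free RNA held 126 CPM of fzd7a. A further receptor, fzd10, had 48.6 CPM (34.5 to 66.4, 39 counts) in ventral mesoderm-like cells, 3.97 times its level in all other cells, with 17.2 CPM in free RNA (3 labeled counts).

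**Figure D3:**
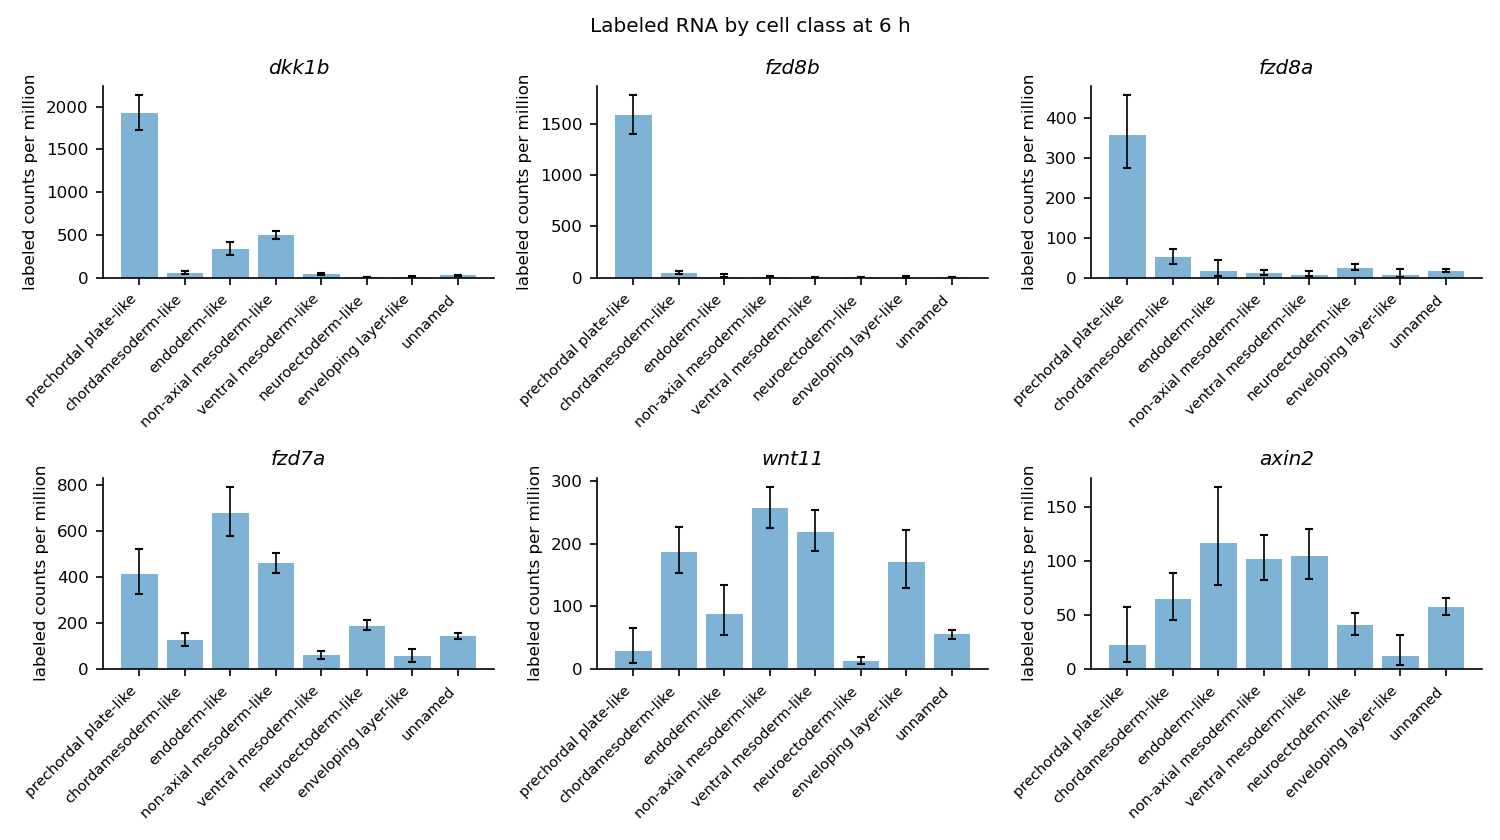
Labeled CPM in 7 named cell classes and in the unnamed rest at 6 h, for 6 members. Bars are the level of the class and whiskers the exact Poisson 95% interval of 1 library. The prechordal plate-like bar stands above all others for dkk1b (1922 CPM), fzd8b (1586 CPM) and fzd8a (359 CPM), whereas wnt11, fzd7a and axin2 are high in several classes.

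The co-receptors lrp5 and lrp6 were level or nearly so in the frogs. In the zebrafish sections only lrp5 had a usable entry, and it was on the animal side. X. tropicalis lrp6 was abundant at 669 and 501 CPM in the vegetal regions and 606 and 490 CPM in the animal regions, a log2 difference of 0.09 ± 0.15 (SE, n = 2, edgeR adjusted p = 0.736), and lrp5 differed by 0.19 ± 0.22. X. laevis lrp6.L was at 3.96 and 3.12 CPM in the vegetal regions, against 2.86 and 2.64 CPM in the animal regions, and was not called (log2 difference 0.35 ± 0.37 SE).

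X. laevis lrp5.L was called in the vegetal region, but the size was small, with 26.2 and 30.5 CPM against 22.6 and 19.2 CPM in the animal region (log2 difference 0.45 ± 0.16 SE, n = 2, edgeR adjusted p = 0.0198). The call was lost with DESeq2 (adjusted p = 0.346), without the replicate block (adjusted p = 0.215) and with narrower outer regions, 1 of 5 equal parts at each end (adjusted p = 0.178). In zebrafish, lrp5 (chromosome 25) had 9.71, 6.79 and 21.5 CPM in the vegetal regions, against 24.2, 16.5 and 40.4 CPM in the animal regions. It was lower in the vegetal region of 3 of 3 embryos (log2 difference -1.10 ± 0.19 SE, edgeR adjusted p = 0.000124; with TMM factors -0.82, adjusted p = 0.00141). At 6 h lrp5 had 144 counts, 60.4% of them labeled (51.9% to 68.5%), and lrp6 had 2.

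Of the extracellular antagonists, 1 sfrp entry was called and no dkk gene could be tested. X. laevis sfrp2.S, a secreted Frizzled-related protein gene, had 20.8 and 11.4 CPM in the vegetal regions, against 12.8 and 5.88 CPM in the animal regions. It was 1.62-fold and 1.95-fold higher in the vegetal region within each oocyte, while the values of the 2 oocytes overlapped (log2 difference 0.81 ± 0.21 SE, edgeR adjusted p = 0.000639; lost with DESeq2, adjusted p = 0.109, and without the replicate block, adjusted p = 0.336). X. laevis sfrpx.S was not called (log2 difference 0.23 ± 0.24 SE). X. tropicalis sfrpx had 24.2 and 45.1 CPM in the vegetal regions and 27.3 and 39.2 CPM in the animal regions and was not called either (log2 difference 0.02 ± 0.22 SE). The largest totals of the sfrp and dkk groups among untested zebrafish entries were 105 counts for sfrp1a and 9 for dkk3b.

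By 6 h the antagonists were among the newest transcripts. Of dkk1b, an inhibitor of the Lrp co-receptors known for head formation, 1060 counts were labeled and 35 unlabeled, a labeled share of 96.8% (exact 95% interval 95.6% to 97.8%) and the highest of the 13 members with at least 200 counts. Of sfrp1a, 89.1% of 571 counts were labeled (86.3% to 91.6%). The rarer dkk3b had 196 counts with 91.3% labeled.

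Labeled dkk1b was highest in prechordal plate-like cells, at 1922 CPM (343 counts, exact Poisson 95% interval 1724 to 2137), which was 22.3 times the level of all other cells. Non-axial mesoderm-like cells had 494 CPM (449 to 541) and endoderm-like cells 338 CPM (268 to 420). Chordamesoderm-like cells, the neighbours of the prechordal plate on the embryonic axis, had 52.4 CPM (35.4 to 74.8) and neuroectoderm-like cells 5.64 CPM (2.58 to 10.7), both below the 138 CPM of free RNA. The little unlabeled dkk1b RNA was also highest in prechordal plate-like cells, at 47.3 CPM (14 counts, 25.8 to 79.3). Labeled sfrp1a had 163 CPM (109 to 233) in prechordal plate-like cells and 117 CPM (77.6 to 169) in endoderm-like cells, intervals that overlap.

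Among the intracellular members, axin1, the scaffold of the complex that degrades beta-catenin, was on opposite sides in zebrafish and X. tropicalis. In zebrafish, axin1 (chromosome 3) had 18.8, 24.9 and 90.5 CPM in the vegetal regions of embryos 1 to 3, against 60.2, 84.6 and 257 CPM in the animal regions. The vegetal level was 0.313, 0.295 and 0.352 times the animal level in the 3 embryos, a narrow range although embryo 3 had a several times higher level throughout (log2 difference -1.63 ± 0.15 SE, edgeR adjusted p = 5e-09; with TMM factors -1.35, adjusted p = 1.28e-09). Of the 10 zebrafish members tested it had the largest difference, and the most vegetal bin was at 18.1, 12.996 and 86.1 CPM, against 74.5, 96.04 and 292 CPM in the most animal bin.

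In X. tropicalis, axin1 had 225 and 490 CPM in the vegetal regions, against 141 and 356 CPM in the animal regions, with overlap between the oocytes (log2 difference 0.57 ± 0.16 SE, n = 2, edgeR adjusted p = 0.00624; lost without the replicate block, adjusted p = 0.899). X. laevis has the entries axin1 and axin1.S, neither of which was called, with log2 differences of 0.32 ± 0.19 and -0.17 ± 0.30 (SE). The difference between the species itself was not tested. Here and in every other comparison of zebrafish with a frog, embryos after fertilization are set against oocytes, so species and stage cannot be told apart.

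Axin2, a feedback inhibitor that Wnt signalling switches on, was the most abundant X. laevis member, with axin2.S at 433 and 282 CPM in the vegetal regions and 396 and 251 CPM in the animal regions (log2 difference 0.15 ± 0.12 SE, n = 2, edgeR adjusted p = 0.392). In zebrafish, axin2 (chromosome 3) was rare, with 2.85, 10.7 and 7.72 CPM in the vegetal regions, against 4.65, 14.7 and 14.6 CPM in the animal regions. Its call (log2 difference -0.70 ± 0.25 SE, edgeR adjusted p = 0.0368) was lost with TMM factors (-0.43, adjusted p = 0.247), with DESeq2 (adjusted p = 0.563), without embryo 1 (adjusted p = 0.0649) and without embryo 3 (adjusted p = 0.291).

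**Figure D4:**
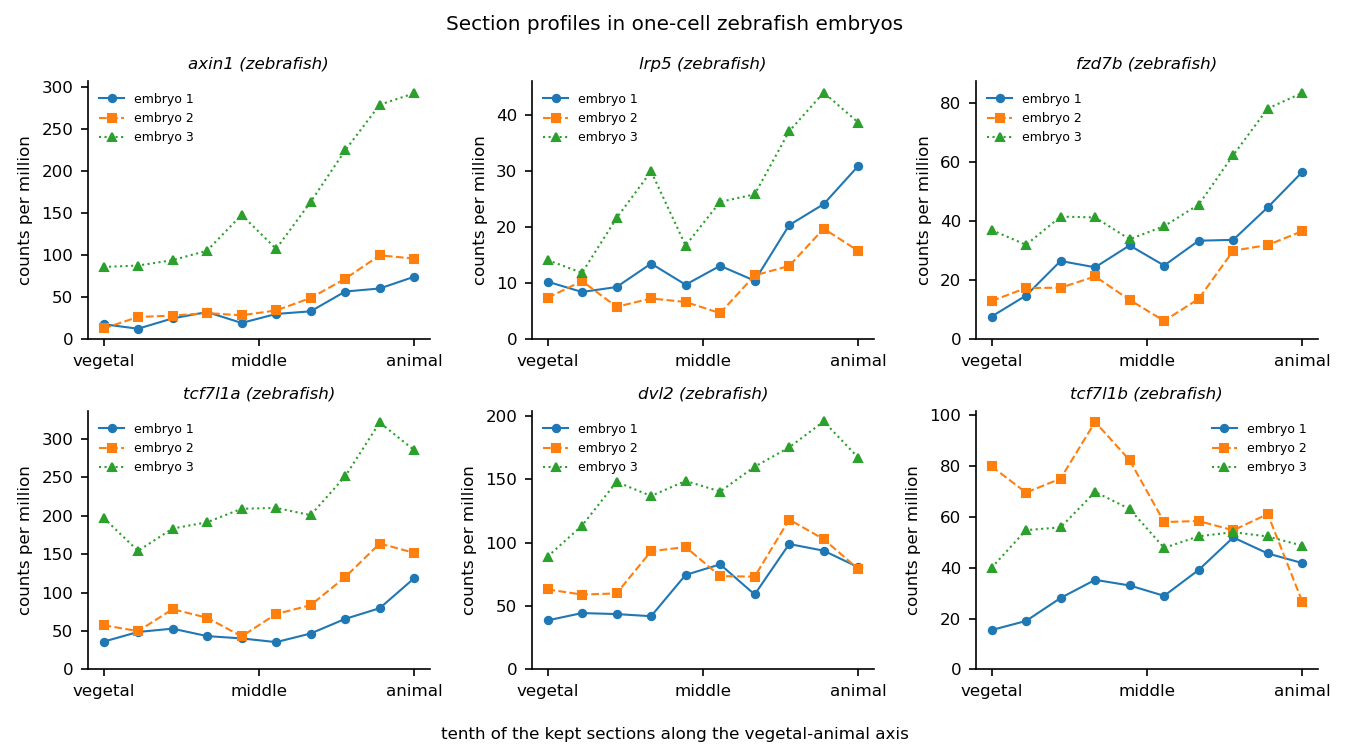
CPM of 6 members in 10 equal bins of the kept sections of 3 one-cell zebrafish embryos, vegetal end on the left and animal end on the right. Apart from tcf7l1b the genes are higher at the animal end in all 3 embryos, most of all axin1 (86.1 CPM in the most vegetal and 292 CPM in the most animal bin of embryo 3), and embryo 3 is the highest throughout for these 5.

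Dishevelled genes, the cytoplasmic relay of Frizzled signals, were among the evenly spread members in frogs. X. laevis dvl3.L was at 72.2 and 68.5 CPM in the vegetal regions and 75.5 and 64.3 CPM in the animal regions (log2 difference 0.02 ± 0.13 SE). X. tropicalis dvl2 and dvl3 differed by 0.12 ± 0.20 and 0.38 ± 0.21, neither called. In zebrafish, dvl2 (chromosome 7) had 39.99, 64.5 and 132 CPM in the vegetal regions, against 91.3, 102 and 184 CPM in the animal regions (log2 difference -0.73 ± 0.15 SE, n = 3, edgeR adjusted p = 0.000537; with TMM factors -0.46, adjusted p = 0.0194; lost with DESeq2, adjusted p = 0.0991). Its relatives dvl3a, with 35.99, 59.6 and 116 CPM against 55.7, 72.8 and 127 CPM in the animal regions, and dvl3b were not called (log2 differences -0.32 ± 0.14 and 0.01 ± 0.32 SE), though dvl3a passed with narrower outer regions (edgeR adjusted p = 0.00987).

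Of the intracellular members with at least 200 counts at 6 h, the labeled share was 41.1% for dvl2 (1345 counts, exact 95% interval 38.5% to 43.8%), 55.7% for axin1 (479 counts, 51.2% to 60.2%) and 64.4% for dvl3a (396 counts, 59.5% to 69.1%). In axin2, 91.5% of 587 counts were labeled (88.9% to 93.6%). Labeled axin2 was at 117 CPM (77.6 to 169) in endoderm-like, 105 CPM (83.4 to 129) in ventral mesoderm-like and 102 CPM (82.1 to 124) in non-axial mesoderm-like cells, and at 40.7 CPM (31.4 to 51.9) in neuroectoderm-like and 12.2 CPM (3.31 to 31.1) in enveloping layer-like cells. Free RNA held 68.9 CPM of axin2 (12 labeled counts), and no class reached 2 times the level of other cells. New dvl2 was near even, at 59.4 to 83.3 CPM in the named classes other than the enveloping layer-like one with 12.2 CPM.

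Calls among the nuclear factors of the tcf7 group differed by gene, but whether the genes differ from each other was not tested. In X. laevis all 4 entries tested had their higher level in the vegetal region of both oocytes. The tcf7 entries were higher in the vegetal region in both frogs. X. laevis tcf7.S had 107 and 99.7 CPM in the vegetal regions, against 67.4 and 56.5 CPM in the animal regions (log2 difference 0.75 ± 0.13 SE, n = 2, edgeR adjusted p = 7.83e-08), and was called under all 7 alternatives that gave a test. X. tropicalis tcf7 had 25.5 and 32.5 CPM in the vegetal regions, against 8.26 and 15.4 CPM in the animal regions (log2 difference 1.35 ± 0.25 SE, n = 2, edgeR adjusted p = 4.96e-05; lost without the replicate block, adjusted p = 0.282). The rare X. laevis tcf7l2.L had 5.69 and 4.31 CPM, against 2.22 and 1.93 CPM in the animal regions (log2 difference 1.26 ± 0.36 SE, edgeR adjusted p = 0.00215; lost with DESeq2, adjusted p = 0.202, and without the replicate block, adjusted p = 0.0823).

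The tcf7l1 genes code for repressors of Wnt targets in the absence of a signal. X. tropicalis tcf7l1 was at 386 and 251 CPM in the vegetal regions and 439 and 279 CPM in the animal regions (log2 difference -0.17 ± 0.15 SE, edgeR adjusted p = 0.489). The X. laevis entries tcf7l1.S and tcf7l1.L differed by 0.34 ± 0.14 and 0.60 ± 0.27, with edgeR adjusted p values of 0.0521 and 0.0727. The first of these passed the threshold with TMM factors (adjusted p = 0.0296).

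Of the 2 zebrafish tcf7l1 genes, tcf7l1a was called and tcf7l1b was not. The vegetal regions held 46.8, 63.5 and 175 CPM of tcf7l1a (chromosome 10), against 82.1, 139 and 286 CPM in the animal regions (log2 difference -0.88 ± 0.14 SE, n = 3, edgeR adjusted p = 5.21e-05; with TMM factors -0.60, adjusted p = 0.00174). For tcf7l1b (chromosome 8) the values were 23.4, 76.8 and 57.8 CPM in the vegetal regions and 47.7, 53.8 and 52.2 CPM in the animal regions, lower in the vegetal region of embryo 1 and higher in those of embryos 2 and 3 (log2 difference 0.00 ± 0.18 SE, edgeR adjusted p = 0.99). Whether the pair differ in their gradient was not tested. At 6 h the labeled share was 70.5% for tcf7l1a (620 counts, 66.7% to 74.05%) and 45.2% for tcf7l1b (301 counts, 39.5% to 50.99%), and the intervals do not overlap. New tcf7l1a was highest in prechordal plate-like cells at 129 CPM (81.7 to 193) and in neuroectoderm-like cells at 82.7 CPM (69.2 to 98.0).

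**Figure D5:**
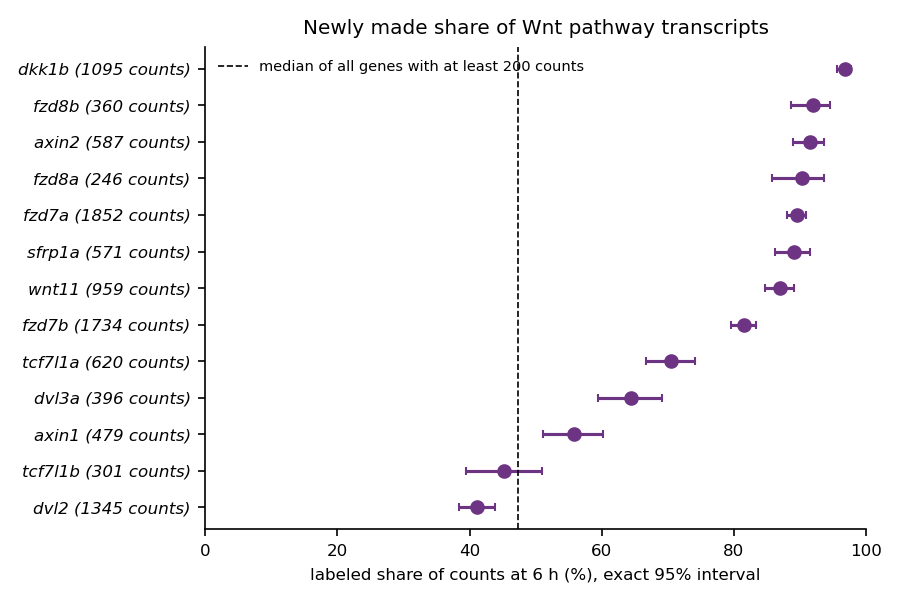
Labeled share of counts at 6 h for the 13 members with at least 200 counts, with the exact Clopper-Pearson 95% interval. The dashed line is the median of all genes with as many counts, 47.3%. The shares range from 41.1% for dvl2 to 96.8% for dkk1b, and 11 of the 13 lie above the line.

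Set beside all genes with at least 200 counts, most members that passed the same limit were largely new. Of the 5778 genes with at least 200 counts at 6 h, the median labeled share was 47.3%, 18.2% of genes were over 80% and 23.3% under 20%. Of the 13 members with as many counts, 8 were over 80% (dkk1b, fzd8b, axin2, fzd8a, fzd7a, sfrp1a, wnt11 and fzd7b) and 0 under 20%, with a median of 86.97%. The limit is on labeled plus unlabeled counts, so a gene can pass it through its labeled counts. Of these 8, only fzd7b also had at least 200 unlabeled counts (320). Another 27 members had 1 to 196 counts, and 21 had none.

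The cell classes at 6 h came from 14 clusters of 6847 cells, of which 7 were named from markers. The ventral mesoderm-like class had 5 of 9 listed markers raised (eve1, cdx4, ved, bambia and szl). Its top 10 genes also held tbxta, which is on the chordamesoderm list, so its name is less certain. The unnamed rest held 3738 cells, 54.6% of all. A cluster of 936 cells was led by germ cell genes such as nanos3, dnd1 and ca15b, but its median cell held 2 of 8 germ cell markers, against 1 in other cells, and it stayed unnamed. At resolution 0.6 a germ cell-like class of 49 cells was named, with 8 of 8 markers raised and 17.5% of its counts labeled. Neither clustering alternative had a prechordal plate-like, ventral mesoderm-like or neuroectoderm-like class, and resolution 0.6 had no endoderm-like class, so all values of these classes rest on the main clustering or, for endoderm-like cells, on it and 1 alternative. Of 13 class levels that an alternative gave, 7 lay outside the counting interval of the level in the main clustering and 6 inside it. With 1000 variable genes and at resolution 0.6, the ratio of dkk1b in non-axial mesoderm-like cells was 4.68 and 4.51 (main 6.20), that of fzd7a there 2.26 and 2.43 (main 2.83), and that of fzd8a in chordamesoderm-like cells 5.47 and 7.97 (main 2.08). The ratio of wnt11 in chordamesoderm-like cells was 1.31 and 1.71 (main 2.04). The chordamesoderm-like class was wider in these alternatives, with 841 and 521 cells (main 415). In both it included a cluster led by gsc, a prechordal plate marker, so its ratios are not of the same cells as in the main clustering. The main chordamesoderm-like class also had gsc among its top 10 genes, and the main prechordal plate-like class had chrd, a chordamesoderm marker. Whether each of these 2 classes holds cells of the other was not tested.

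Other genes of the Wnt pathway, listed by role but with earlier results of these data known, gave mixed directions. Of 36 listed genes tested in zebrafish, 6 were called vegetal and 12 animal, where 4.16% and 27.4% of all entries were. In X. laevis it was 11 and 9 of 39, against 15% and 18.5% of all entries, and in X. tropicalis 8 and 6 of 39, against 8.88% and 16.5%. In zebrafish 3 of the 6 vegetal calls, and in each frog 2 of the vegetal calls, came from the genes of maternal dorsal determination. The paper had already named genes of this group as vegetally localized in these data. Their calls are therefore not an independent result, and the shares of vegetal calls above include them. The median log2 difference of the listed genes was -0.27, 0.04 and 0.07 in zebrafish, X. laevis and X. tropicalis.

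Some of these genes shared a direction between species. Only the 5 called genes with the largest difference are named per species. Related copies and species outside these lists are therefore not compared. The sulfatase gene sulf1, whose enzyme trims heparan sulfate at the cell surface, had 103, 45.001 and 112 CPM in the vegetal regions of the zebrafish embryos, against 15.03, 5.15 and 16.1 CPM in the animal regions (log2 difference 2.86 ± 0.15 SE, edgeR adjusted p = 5.36e-13). In X. tropicalis, sulf1 had 264 and 182 CPM in the vegetal regions, against 4.96 and 1.48 CPM in the animal regions (log2 difference 6.04 ± 0.24 SE, edgeR adjusted p = 2.91e-22). A level of sulf1 in X. laevis is not given. Of the 6 entries tested there for ligand secretion and extracellular modulators, the role group of sulf1, 0 were called vegetal. Whether sulf1 was one of these entries is not stated, so no difference between the species follows. The glypican gene gpc4 was lower in the vegetal region in both frogs, with log2 differences of -1.63 for gpc4.L in X. laevis and -2.05 in X. tropicalis (edgeR adjusted p = 1.01e-35 and 7.42e-11). Zebrafish gpc4 was not among the 5 pathway genes named for that species, and its direction is not given.

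The planar polarity gene prickle1 was also on the animal side in the frogs, at -1.60 and -1.19 for the X. laevis entries prickle1.L and prickle1.S and -1.81 in X. tropicalis, and zebrafish prickle1a was at -1.10 (edgeR adjusted p = 0.0305; with TMM factors 0.143). The formin gene daam1, which links Dishevelled to the cytoskeleton, was at 498 and 390 CPM in the vegetal regions of X. tropicalis, against 64.04 and 81.6 CPM in the animal regions (log2 difference 2.62 ± 0.18 SE, edgeR adjusted p = 6.04e-15), whereas zebrafish daam1b was at -0.89 (edgeR adjusted p = 0.00324; with DESeq2 0.203). The remaining genes with the largest differences were pygo1 in X. tropicalis (1.57), btrc.S (1.40) and invs.L (-1.06) in X. laevis, and bcl9 (-0.95) and ptk7a (-0.81) in zebrafish, of which invs.L, bcl9 and ptk7a were not called with DESeq2 (adjusted p = 0.327, 0.294 and 0.541), nor bcl9 and ptk7a with TMM factors (0.0989 and 0.0776). Without the replicate block, pygo1, btrc.S and X. tropicalis gpc4 also missed the threshold (edgeR adjusted p = 0.0691, 0.0511 and 0.0554). At 6 h frzb, another secreted Frizzled-related antagonist, had 942 labeled CPM (168 counts) in prechordal plate-like cells, against 7.45 CPM in all other cells. The gene rspo3, for a ligand that strengthens Wnt signals, had 85.1 CPM (28 counts) in enveloping layer-like cells, against 0.367 CPM. These 2 had the largest ratios to other cells among the listed genes. Leaving lef1 aside, sp5a also passed the class limits in endoderm-like (ratio 7.94) and non-axial mesoderm-like cells (4.19). So did sulf1 (7.47) and nkd1 (3.98) in non-axial mesoderm-like cells. In ventral mesoderm-like cells the ratio was 2.74 for prickle1b and 2.12 for nkd1, and in chordamesoderm-like cells 3.18 for prickle1b.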

How the data were processed

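The authors mapped tomo-seq reads with STAR 2.5.3a to GRCz10 and to the X. laevis and X. tropicalis genomes and deposited, for each section and gene, counts of unique molecules in the frogs and expected counts in zebrafish, corrected for molecules that drew the same tag. For 1 zebrafish embryo the deposited file is separated differently from the rest (unit: other, used here with the same meaning, expected counts). The authors deposited scSLAM-seq as whole counts per gene and barcode, split into labeled and unlabeled reads (GRCz11, Cell Ranger 3.0.2, STARsolo 2.7.0f).

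Here, sections below 10% of the specimen's median total were dropped, and the kept ones split into 3 equal parts, summed and, for expected counts, rounded. Vegetal and animal regions were compared with edgeR 4.0.16 (quasi-likelihood, filterByExpr, region totals without spike-ins as library size, specimen as block, Benjamini-Hochberg over all entries, threshold 0.05). The regions come from 1 specimen, which pairs them: deviations from the region means correlated at 0.82 to 0.93 within zebrafish embryos, 0.51 within X. laevis and 0.75 within X. tropicalis oocytes. Specimens are separate embryos or oocytes. The test was tried on simulated data.

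At 6 h, cells had at least 150 labeled and 150 unlabeled genes. Labeled counts, without the genes described and the pathway list, were scaled to 10000, log-transformed, reduced to 2000 variable genes and 30 components, and clustered (scanpy 1.11.5, leidenalg 0.10.2, 20 neighbours, resolution 1). Clusters were named from marker lists where at least 3 markers were raised, 1 was among the top 10 genes and the median cell held at least 2 markers more than other cells, the last chosen after seeing the clusters. The doublet caller Scrublet marked 1 of 6847 cells and has not worked, so doublets were not removed.

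Named are all called members, the 3 most abundant uncalled ones per family and species, members with at least 200 counts at 6 h, classes with at least 2 times the level of other cells and 20 labeled counts, and the 5 pathway genes with the largest difference per species. The members and lists were chosen with earlier results of these data known. Alternatives were TMM factors, DESeq2 1.42.0, other filters and regions, no block, and leaving out specimens.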

Additional observations from a re-analysis of the deposited data

How the results depend on the processing

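Without the replicate block edgeR called 0 zebrafish members in the animal region, and 2 X. laevis and 3 X. tropicalis members in the vegetal region with 0 in the animal region of either. Over all entries that fit called 0 and 0 (vegetal and animal) in zebrafish, 865 and 1059 in X. laevis and 146 and 104 in X. tropicalis. With DESeq2, X. laevis had 2 members called vegetal and 0 called animal, and over all entries the calls were 619 and 429 in zebrafish, 1102 and 1274 in X. laevis and 553 and 660 in X. tropicalis. TMM factors gave 954 and 902 in zebrafish. Leaving out each embryo gave 5 to 6 members called animal, and over all entries 208 to 414 vegetal and 1258 to 2169 animal calls, lowest without embryo 3. Of the member-class pairs at 6 h, 16 in the main clustering, 8 passed at resolution 0.6 and 9 with 1000 variable genes, with fewer named classes.

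No called member changed direction under any alternative run. Of the alternative fits of called members, 11 of 59 in zebrafish, 9 of 41 in X. laevis and 6 of 63 in X. tropicalis lost the call. With 1 oocyte left out in a frog, the other gives a ratio with no test. Without the 2 sections of X. tropicalis that stand apart, an alternative chosen after seeing the data, 7 and 1 members were called. The study's filter left no value for some rare members (axin2, dvl3b and fzd7a in zebrafish, for example), and leaving out doublets was not used as an alternative, since the caller marked 1 cell. Depth limits the ligands and antagonists: none of the 16 zebrafish Wnt entries described and no dkk gene of any species could be tested.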
